A study of Mus musculus with 8 samples.

Results

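AGC kinases are a family of serine/threonine kinases named after protein kinases A, G and C. mTOR complex 2 (mTORC2), whose defining subunit is Rictor, phosphorylates several of them in the C-terminal tail, and the kinase PDK1 phosphorylates the activation loop, so that full activity needs both inputs. The 9 genes described here encode these mTORC2-dependent kinases and PDK1: the protein kinases B Akt1 and Akt2, the serum- and glucocorticoid-induced kinases Sgk1, Sgk2 and Sgk3, the protein kinase C isoforms Prkca, Prkcd and Prkce, and Pdpk1, which encodes PDK1. They were picked by gene symbol for their place in this pathway. They are 9 of the 19938 genes that had a probe set annotated to 1 gene symbol, which are called all genes below. They were read by 10 probe sets, each annotated to 1 gene symbol, since Akt2 had 2 and every other gene 1. A gene is described by its brightest probe set. In liver, Akt2 is the main Akt isoform of insulin action, and phosphorylation, the step at which mTORC2 acts, was not measured by these arrays.

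The samples were livers of 8 adult male mice, fasted for 16 h and then given free access to food for 3 h. Of these, 4 carried LoxP-flanked Rictor alleles and albumin-Cre (here Rictor knockout) and 4 were labelled wild type. Albumin-Cre acts in hepatocytes, so other liver cells keep Rictor, and whether the wild type mice carried Cre or LoxP sites is not given in the labels. There was 1 array per liver (Affymetrix Mouse Gene 1.0 ST, which reads a gene through probes along its length), and levels are given in log2 units as summarised by RMA, with array medians between 6.90 and 7.03. Differences are knockout minus wild type with n = 4 in each group, and the number of arrays limits their precision.

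The labels could not be checked through the deleted gene, because the Rictor probe set, whose exons were not examined, read 9.15, 9.51, 9.68 and 9.47 on the knockout arrays, against 9.47, 9.28, 9.23 and 9.64 on the wild type arrays (difference 0.05, SE 0.13). Of the hepatocyte markers fixed for this comparison, 9 of 10 were measured, with means between 13.19 and 14.22, so the arrays carried liver RNA. Knockout array 1 stood apart from its group. Its score on principal component 1 (35.8% of the variance) was -0.310, against 0.410 to 0.458 for knockout arrays 2 to 4 and -0.344 to -0.0293 for the wild type arrays. The highest of these wild type values belonged to wild type array 1. Results are therefore also given without knockout array 1 and without both arrays numbered 1.

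Promoter windows were available for 6 of the 9 genes in a RefSeq table (build GRCm38.p6), with 17 annotated start sites in all. The 250 bases before each start were searched on both strands for 4 motifs: the glucocorticoid response element (AGAACA and TGTTCT with 3 bases between them), the FoxO core GTAAACA, the TATA box TATAAA and the E-box CACGTG. Of the 6 Sgk1 windows, 1 held the glucocorticoid element, from 189 to 175 bases before its start, a match found in 3 of 32851 windows (0.00913%). The same window held an E-box, as did 1 Prkcd window, from 106 to 101 bases before its start (6.02% of windows). The FoxO core stood in 1 of the 2 Akt1 windows, from 161 to 155 bases before its start, as in 3.17% of windows, and none of these 4 motifs was in the 4 Akt2 windows. The TATA box stood in 2 other Sgk1 windows and in the same Prkcd window, as in 12.4% of all windows. The following windows, all 5′ to 3′ on the gene's strand with motif matches in capitals, are the Sgk1 start with the glucocorticoid element, the most upstream Akt2 start and the Akt1 start with the FoxO core. They are shown because Sgk1 and Akt2 were among the genes with lower knockout means while the Akt1 groups differed by less than 0.10 on the log2 scale. A match describes letters in the window only.
Sgk1, chr10:21993640-21993889, plus strand: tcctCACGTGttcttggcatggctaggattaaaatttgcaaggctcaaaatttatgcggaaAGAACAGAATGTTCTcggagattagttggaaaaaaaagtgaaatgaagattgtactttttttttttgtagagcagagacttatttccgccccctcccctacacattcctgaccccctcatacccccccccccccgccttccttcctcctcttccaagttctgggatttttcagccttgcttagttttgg
Akt2, chr7:27591302-27591551, plus strand: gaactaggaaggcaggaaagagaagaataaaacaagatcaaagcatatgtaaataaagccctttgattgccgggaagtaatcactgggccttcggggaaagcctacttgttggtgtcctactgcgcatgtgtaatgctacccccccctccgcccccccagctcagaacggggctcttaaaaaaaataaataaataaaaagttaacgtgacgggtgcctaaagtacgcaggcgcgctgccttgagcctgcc
Akt1, chr12:112674885-112675134, minus strand: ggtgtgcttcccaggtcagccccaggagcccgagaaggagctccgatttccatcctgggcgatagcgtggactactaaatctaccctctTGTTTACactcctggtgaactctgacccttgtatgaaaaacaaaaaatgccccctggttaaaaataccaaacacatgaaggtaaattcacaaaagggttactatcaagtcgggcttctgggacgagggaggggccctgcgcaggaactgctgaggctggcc

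No AGC kinase transcript passed the correction over all probe sets. The 3 SGK genes and Akt2 had lower means on the knockout arrays by 0.22 to 0.29 on the log2 scale, whereas Akt1, Pdpk1, Prkcd and Prkce differed by less than 0.10. In limma, 0 of the 9 genes had an adjusted p under 0.05, as had 0% of all genes. Without adjustment, 3 of 9 had a p under 0.05, namely Akt2, Sgk1 and Sgk3, all lower, against 6.53% of all genes that were lower at this level and 10.3% in either direction (2062 genes). Akt2 is counted here by its brightest probe set. Its other probe set gave a difference of -0.13 with an unadjusted limma p of 0.215, and would not be counted. In 0 of 9 genes were the groups free of overlap, against 4.42% of all genes (2.61% lower). The mean was lower in 7 of 9, against 56.9% of all genes. The median difference of the 9 genes was -0.19, against -0.02 over all genes.

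**Figure D1:**
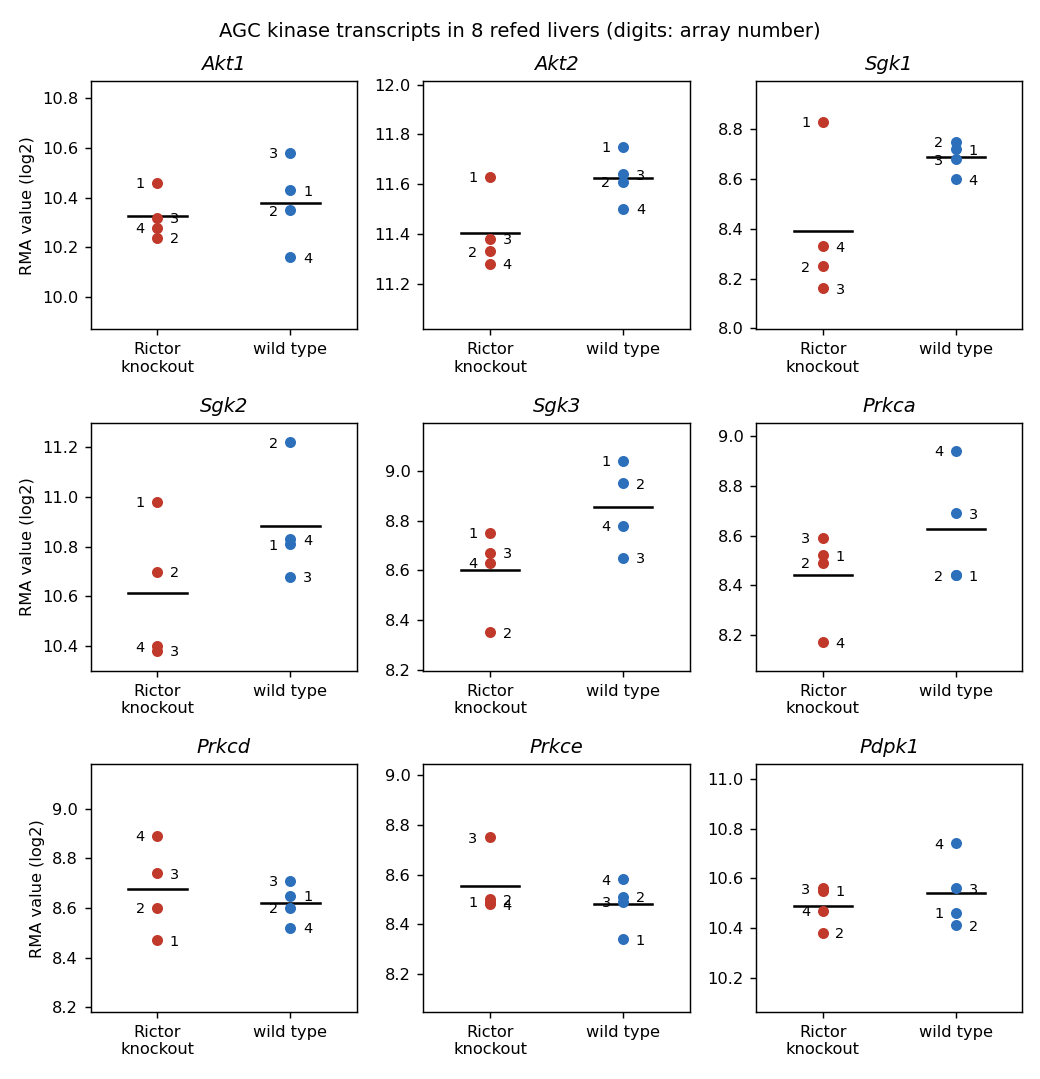
RMA values (log2, y axis) of the 9 AGC kinase genes in Rictor knockout livers (red, left) and wild type livers (blue, right). Each point is 1 array marked with its number, black lines are group means, and every panel spans 1 log2 unit. For Sgk1 and Akt2, knockout arrays 2 to 4 lie below all wild type arrays and knockout array 1 does not. Akt2 is shown by its brightest probe set only.

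Among the Akt genes, Akt2 (probe set 10374364) had the lower mean. It read 11.63, 11.33, 11.38 and 11.28 on knockout arrays 1 to 4, against 11.75, 11.61, 11.64 and 11.50 on wild type arrays 1 to 4. Knockout arrays 2 to 4 lay below every wild type array, and knockout array 1 lay among them. The means were 11.41 ± 0.16 in knockout and 11.62 ± 0.11 in wild type livers (SD, n = 4 each), a difference of -0.22 (SE 0.09, 95% interval -0.42 to -0.01), or 0.860-fold. The limma adjusted p was 0.420 and the exact two-sided permutation p was 0.0857, where 4 arrays against 4 allow no p below 0.0286. Without knockout array 1 the difference was -0.29 (limma adjusted p = 0.0691).

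The other Akt2 probe set (10551393), annotated to the same gene symbol, gave a smaller difference. Whether both probe sets read the Akt2 locus was not tested. It read 11.51, 11.21, 11.25 and 11.18 in knockout livers and 11.57, 11.51, 11.31 and 11.29 in wild type livers, a difference of -0.13 (SE 0.10, limma adjusted p = 0.679). Again knockout arrays 2 to 4 lay below all wild type arrays. The unadjusted limma p was 0.215, against 0.040 for probe set 10374364. The unadjusted result for Akt2 therefore depended on the probe set.

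Akt1, the isoform best known for growth and survival signalling, did not separate the groups. It read 10.46, 10.24, 10.32 and 10.28 in knockout livers and 10.43, 10.35, 10.58 and 10.16 in wild type livers. The highest and the lowest value both came from wild type livers. The difference was -0.06 (SE 0.10, 95% interval -0.28 to 0.17, limma adjusted p = 0.896). The ratio of Akt2 (brightest probe set) to Akt1 within each array changed by -0.16 on the log2 scale (95% interval -0.34 to 0.01). Its exact permutation p was 0.0857, and 0.300 after Benjamini-Hochberg adjustment over the 7 pairs of related kinases compared. These pairs were chosen after seeing the data, so unequal change of the Akt genes was not shown.

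The SGK kinases phosphorylate sites that resemble those of Akt, and Sgk1 is the isoform regulated most strongly at the level of its transcript, among others by glucocorticoids. Sgk1 (probe set 10362073) had the largest difference of the 9 genes. It read 8.83, 8.25, 8.16 and 8.33 on knockout arrays 1 to 4, against 8.72, 8.75, 8.68 and 8.60 on wild type arrays 1 to 4. Knockout array 1 held the highest of the 8 values, and the other knockout arrays lay below all wild type arrays. The means were 8.39 ± 0.30 in knockout and 8.69 ± 0.07 in wild type livers (SD, n = 4 each), a difference of -0.29 (SE 0.13, 95% interval -0.58 to -0.0012) or 0.817-fold, with a limma adjusted p of 0.449 and an exact permutation p of 0.143. Without knockout array 1 the difference was -0.44 and passed (limma adjusted p = 0.0192), in a fit that called 4.2% of all genes, with 3.14% of all genes called lower. Without both arrays numbered 1 it was -0.43 and passed (limma adjusted p = 0.0195, with 7.24% of all genes called, 4.96% as lower), and it was the 1 AGC kinase of 9 to pass in either fit. Those arrays are known to stand apart in these same data, so these p-values are no separate test. Epcam, a cholangiocyte marker, likewise had knockout arrays 2 to 4, but not knockout array 1, below all wild type arrays, and its part in the Sgk1 difference was not tested. Of the 6 measured cholangiocyte markers 4 had lower means, whereas Krt7 (0.11) and Krt19 (0.02) had higher means. With array weights Sgk1 did not pass (-0.39, limma adjusted p = 0.0622), nor did any other of the 9, against 3.38% of all genes (2.11% lower).

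Sgk2, the family member with high expression in liver and kidney, read 10.98, 10.70, 10.38 and 10.40 in knockout livers and 10.81, 11.22, 10.68 and 10.83 in wild type livers. Knockout arrays 3 and 4 were the lowest of the 8, and knockout array 1 was exceeded by wild type array 2 only. The difference was -0.27 (SE 0.15, 95% interval -0.60 to 0.06, limma adjusted p = 0.539). It was -0.39 without knockout array 1 and -0.16 without wild type array 2, and passed in neither case (limma adjusted p = 0.129 without the knockout array and 0.844 without the wild type array).

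Sgk3, which binds endosomal phosphoinositides through its PX domain, read 8.75, 8.35, 8.67 and 8.63 in knockout livers, against 9.04, 8.95, 8.65 and 8.78 in wild type livers. Knockout arrays 2 and 4 lay below all wild type arrays, and 3 wild type arrays lay above knockout array 1. The difference was -0.26 (SE 0.12, 95% interval -0.51 to -0.0013), or 0.838-fold, with a limma adjusted p of 0.448 and an exact permutation p of 0.0857. The ratios between the 3 SGK genes changed by -0.04 to -0.01 on the log2 scale, and the widest of their 95% intervals, for Sgk2 over Sgk3, ran from -0.48 to 0.45, so neither equal nor unequal change was shown. Without both arrays numbered 1 the change was -0.18 for Sgk1 over Sgk3 and -0.17 for Sgk2 over Sgk3.

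**Figure D2:**
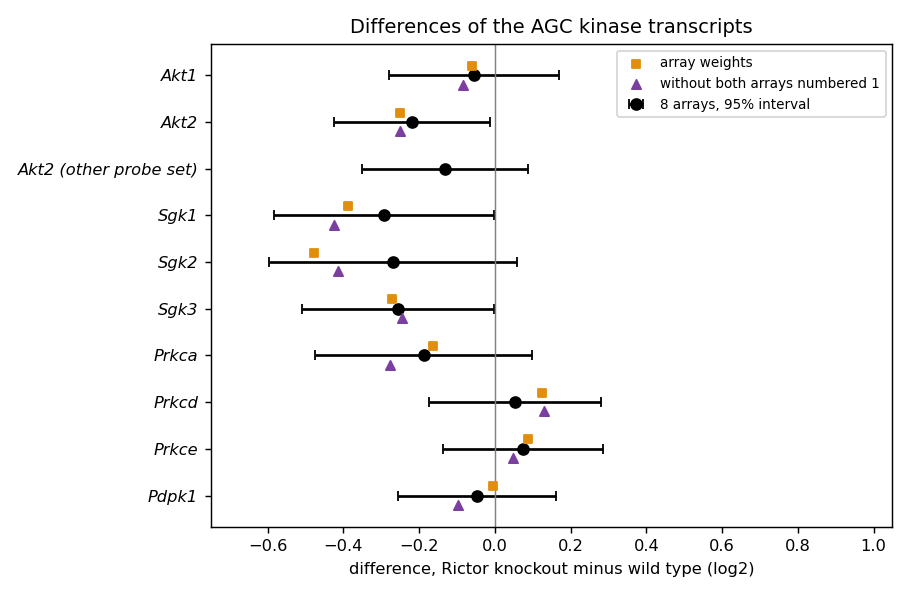
Differences of the AGC kinase genes, Rictor knockout minus wild type (log2, x axis). Black points with bars are the limma estimate from 8 arrays with its 95% interval, orange squares use array weights, and purple triangles leave out both arrays numbered 1. The 3 SGK genes and Akt2 lie left of zero at all 3 settings, with Sgk1 at -0.29, -0.39 and -0.43.

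The PKC isoforms differed among themselves in direction, with no difference beyond the spread. Prkca, the conventional, calcium-dependent isoform, read 8.52, 8.49, 8.59 and 8.17 in knockout livers and 8.44, 8.44, 8.69 and 8.94 in wild type livers. The lowest value belonged to knockout array 4 and the highest to wild type array 4, while the other 6 values lay between 8.44 and 8.69. The difference was -0.19 (SE 0.13, 95% interval -0.47 to 0.10, limma adjusted p = 0.644), and -0.08 without wild type array 4.

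Prkcd and Prkce are calcium-independent isoforms activated by diacylglycerol, and Prkce is studied in liver as a link between lipid and insulin resistance. Prkcd read 8.47, 8.60, 8.74 and 8.89 in knockout livers and 8.65, 8.60, 8.71 and 8.52 in wild type livers. The knockout arrays held both the lowest and the highest value, so the wild type arrays lay inside their range. Its difference was 0.05 (SE 0.10, 95% interval -0.17 to 0.28, limma adjusted p = 0.902). Prkce read 8.49, 8.50, 8.75 and 8.48 in knockout livers and 8.34, 8.51, 8.49 and 8.58 in wild type livers. Its difference of 0.07 (SE 0.10, 95% interval -0.14 to 0.28, limma adjusted p = 0.840) came mainly from knockout array 3 and was 0.0078 without it. Prkca over Prkce changed by -0.26 (95% interval -0.55 to 0.03), with an exact permutation p of 0.0857 and 0.300 after adjustment over the 7 pairs.

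Pdpk1, the shared upstream kinase, read 10.55, 10.38, 10.56 and 10.47 in knockout livers and 10.46, 10.41, 10.56 and 10.74 in wild type livers. The groups overlapped except for the high wild type array 4 and the low knockout array 2. The difference was -0.05 (SE 0.10, 95% interval -0.26 to 0.16, limma adjusted p = 0.905), and the lower end of the interval is 0.838-fold.

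The 9 genes did not share 1 pattern over the arrays. Knockout array 1 lay nearer to the mean of wild type arrays 2 to 4 than to that of knockout arrays 2 to 4 in 8 of 9 genes, all but Prkca. This array also scored among the wild type arrays on principal component 1. The share of all genes that do the same was not counted, so the count is not shown to be particular to the kinases. For Prkce the means compared were 8.58 in knockout and 8.53 in wild type arrays, and knockout array 1 lay below both at 8.49. Wild type array 1 lay nearer to the mean of knockout arrays 2 to 4 in 2 of 9 genes, Prkca and Pdpk1. Highest values fell on wild type array 1 for Akt2 and Sgk3, on wild type array 4 for Prkca and Pdpk1 and on knockout array 1 for Sgk1.

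Genes whose values followed each kinase most closely were ranked by Pearson's r over the 8 arrays among 18709 genes, as a description without a test. The highest values belonged to Sgk1, with Wdr12, a factor of ribosome biogenesis (r = 0.992), and Xbp1, the transcription factor of the unfolded protein response (r = 0.992). Xbp1 read 13.31, 12.89, 12.86 and 12.96 in knockout livers and 13.28, 13.29, 13.27 and 13.15 in wild type livers, again with knockout array 1 at the top (difference -0.24, SE 0.09, limma adjusted p = 0.363). Sgk3 was followed by Vamp3, a vesicle SNARE (r = 0.987), and Grsf1, a mitochondrial RNA-binding protein (r = 0.984). Akt2 was followed by the peptidase gene Dpp7 (r = 0.981) and Ints11, the Integrator endonuclease (r = 0.980). For Sgk2 these were Cyp2c29 (r = 0.959) and St8sia1 (r = 0.944), for Pdpk1 Rfc1 (r = 0.975) and Cnot6 (r = 0.964), and for Akt1 Brms1 (r = 0.965) and Supt7l (r = 0.954). Prkcd was nearest to Tubgcp6 (r = 0.961) and Rttn (r = 0.952), and Prkca to Ptprs (r = 0.959) and Ssbp3 (r = 0.952). For Prkce they were Cish, a growth hormone-responsive inhibitor of cytokine signalling (r = 0.941), and the very dim Vmn1r197 (r = 0.939). The 8 points of each r share the separation of the arrays described above.

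**Figure D3:**
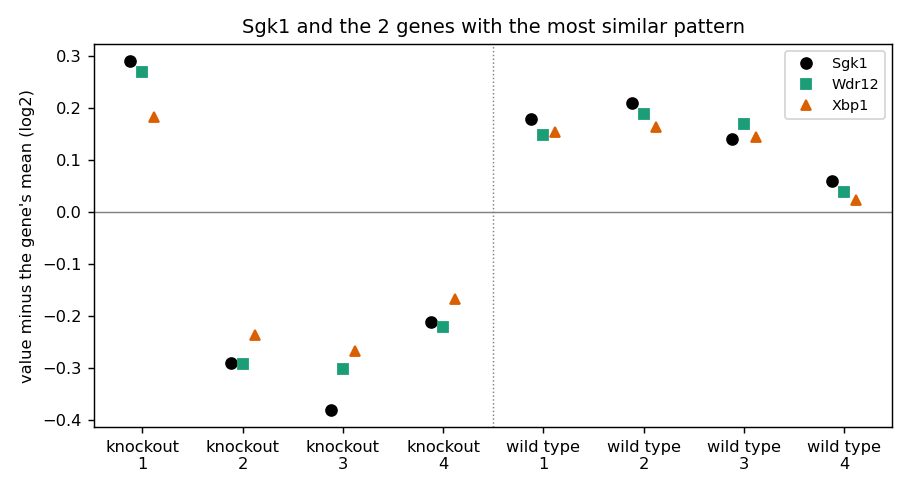
Values of Sgk1 (circles), Wdr12 (squares) and Xbp1 (triangles) on each array, given as the log2 value minus the gene's mean over the 8 arrays (y axis), knockout arrays left of the dotted line and wild type arrays right of it. All 3 genes are low on knockout arrays 2 to 4 and high on knockout array 1 and the wild type arrays.

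Other kinases of the AGC family showed no shared shift. Of 34 genes on the list 24 were measured, 13 with a higher and 11 with a lower mean and a median of 0.02. In limma 0 passed, and 1 in each direction had an unadjusted p under 0.05, against 10.3% of all genes in either direction. Rps6kb2, the S6 kinase 2 gene of the mTORC1 branch, read 9.37, 9.43, 9.26 and 9.31 in knockout livers, against 9.52, 9.65, 9.64 and 9.57 in wild type livers. The groups did not overlap, and knockout array 1 lay with its own group (difference -0.26, SE 0.09, limma adjusted p = 0.299). Rps6kb2 was 1 of 2 genes among these 24 without overlap, both lower, against 2.61% of all genes. Rps6ka3, the ribosomal S6 kinase RSK2, differed by 0.23 (SE 0.10, limma adjusted p = 0.434).

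Upstream of the kinases, 17 of 18 genes of mTORC2 and of phosphoinositide turnover were measured, with a median of 0.03. In limma 0 passed, while 1 higher and 2 lower genes had an unadjusted p under 0.05, against 10.3% of all genes (6.53% lower). Mlst8, the subunit shared by both mTOR complexes, read 8.92, 8.55, 8.49 and 8.47 in knockout livers, against 8.71, 8.96, 9.04 and 8.89 in wild type livers (difference -0.29, SE 0.12, limma adjusted p = 0.390). Knockout array 1 lay among the wild type arrays. Without it Mlst8 passed (-0.40, limma adjusted p = 0.0470), in a fit that called 3.14% of all genes as lower. That array was left out because of these same data, so this p-value is no separate test. Prr5l, an mTORC2-binding protein, differed by -0.27 (SE 0.08, limma adjusted p = 0.242).

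Of the proteins that fold, dephosphorylate or inhibit these kinases, 18 of 20 genes were measured, 11 higher and 7 lower, with a median of 0.03. Past the limma threshold were 0, and 2 higher and 0 lower genes had an unadjusted p under 0.05, against 10.3% of all genes. Appl1, an adaptor that binds Akt, read 8.20, 8.25, 8.52 and 8.49 in knockout livers, against 8.15, 8.07, 8.17 and 8.15 in wild type livers. All knockout arrays lay above all wild type arrays (difference 0.23, SE 0.10, limma adjusted p = 0.407). Hsp90aa1, the chaperone that stabilises Akt, differed by 0.22 (SE 0.10, limma adjusted p = 0.428).

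Genes of the substrates were also compared. Of the Akt substrates 20 of 21 were measured, 9 higher and 11 lower with a median of -0.01. Of these 0 passed in limma, nor was any at an unadjusted p under 0.05, against 10.3% of all genes. The 2 smallest p-values belonged to Cdkn1b, the cell cycle inhibitor p27 (-0.18, SE 0.09, limma adjusted p = 0.514), and Irs1, an insulin receptor substrate (0.17, SE 0.11, limma adjusted p = 0.582). Of the 16 SGK and PKC substrates 12 were higher and 4 lower, with a median of 0.08 and 0 past the limma threshold. At an unadjusted p under 0.05, 2 were higher and 1 lower, against 10.3% of all genes. Krt8, the hepatocyte keratin, read 12.42, 12.44, 12.63 and 12.37 in knockout livers, against 12.02, 12.15, 12.36 and 12.28 in wild type livers, without overlap (difference 0.26, SE 0.09, limma adjusted p = 0.305). Pebp1, a Raf inhibitor released by PKC, differed by 0.27 (SE 0.11, limma adjusted p = 0.383).

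**Figure D4:**
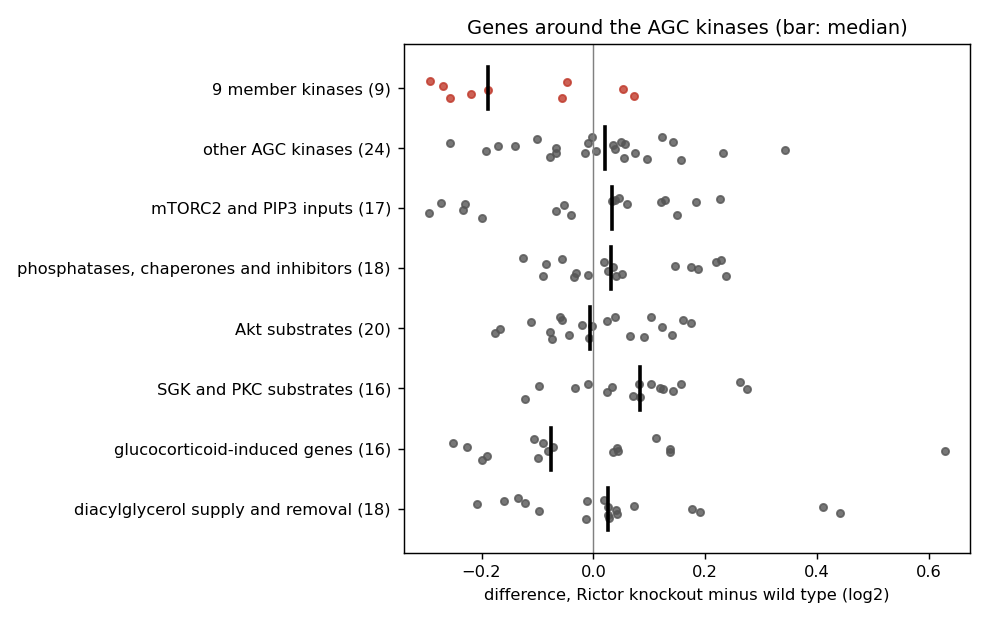
Differences, Rictor knockout minus wild type (log2, x axis), of the 9 AGC kinase genes (red) and of the genes on the lists around them (grey, number measured in parentheses), with 1 point per gene and a bar at each median. The median of the 9 kinases lies at -0.19 and those of the 7 lists between -0.08 and 0.08.

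Transcripts known to be induced through the glucocorticoid receptor, as Sgk1 is, were also listed, together with the receptor gene itself, Nr3c1 (-0.20). Of 17 genes 16 were measured, 7 higher and 9 lower with a median of -0.08, against -0.02 over all genes, and 0 passed in limma. At an unadjusted p under 0.05, 1 was higher and 0 lower, against 10.3% of all genes. Zbtb16, a zinc finger factor, read 8.47, 9.32, 9.03 and 9.11 in knockout livers, against 8.41, 8.16, 8.31 and 8.55 in wild type livers (difference 0.63, SE 0.16, limma adjusted p = 0.185). Without knockout array 1 it passed as higher (0.80, limma adjusted p = 0.00499), in a fit that called 4.2% of all genes in either direction. Tsc22d3, which encodes the glucocorticoid-induced leucine zipper, differed by -0.19 (SE 0.11, limma adjusted p = 0.547). Of the 18 enzymes that supply or remove diacylglycerol, the activator of these PKC isoforms, 11 were higher and 7 lower with a median of 0.03. Past the limma threshold were 0, and 1 higher and 0 lower had an unadjusted p under 0.05, again against 10.3%. Lpin2, a phosphatidate phosphatase that forms diacylglycerol, read 10.21, 10.76, 11.20 and 10.76 in knockout livers and 10.59, 10.05, 10.27 and 10.26 in wild type livers (difference 0.44, SE 0.18, limma adjusted p = 0.393). It passed in the same fit without knockout array 1 (0.62, limma adjusted p = 0.0352). That array was left out because of these same data, so for Zbtb16 and Lpin2 this fit is no separate test. The phospholipase C gene Plcd1 differed by -0.16 (SE 0.09, limma adjusted p = 0.525).

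Some markers of other liver cells differed by more than any of the kinases, and 0 of 60 markers measured, hepatocyte markers included, passed in limma with all arrays at equal weight. All 9 measured lymphocyte markers of 10 had lower means in knockout livers, against 56.9% of all genes. Their summed linear level was 862 to 1103 in knockout and 976 to 1165 in wild type livers. At an unadjusted p under 0.05, 2 of them were lower, the B cell gene Cd79a (-0.37) and the T cell gene Cd4 (-0.28), against 6.53% of all genes. Of the Kupffer cell markers 8 of 10 were higher and 2 lower, against 56.9% of all genes lower, with a summed level of 7704 to 14289 in knockout and 6616 to 12652 in wild type livers. C1qa, a complement component, was higher at an unadjusted p under 0.05 (0.41), and the scavenger receptor gene Marco differed by 0.59 without reaching it. Marco read 7.27, 7.31, 6.79 and 8.58 on knockout arrays 1 to 4. Knockout array 4 held the highest value for Marco, C1qa, Adgre1, Clec4f, Csf1r, Cd5l and Timd4. For Cd68, Vsig4 and Lyz2 the highest value fell on wild type array 1. Of 6 measured cholangiocyte markers 4 were lower, against 56.9% of all genes, with a summed level of 986 to 1545 in knockout and 1044 to 1907 in wild type livers. The other markers of this list, the keratin genes Krt7 (0.11) and Krt19 (0.02), were higher. Epcam, an epithelial adhesion molecule, read 7.03, 6.21, 6.31 and 6.06 in knockout livers, against 6.82, 6.85, 7.07 and 6.72 in wild type livers (difference -0.46, SE 0.17, limma adjusted p = 0.351), the 1 marker of this list at an unadjusted p under 0.05. Knockout array 1 lay among the wild type arrays, as it did for Akt2. Epcam passed as lower with array weights (-0.57, limma adjusted p = 0.0387), the 1 marker of 60 to do so, against 2.11% of all genes. Without knockout array 1, Epcam (-0.67, limma adjusted p = 0.00561) and Alas2, an erythroid enzyme of heme synthesis (-0.57), passed as lower, against 3.14% of all genes. Without both arrays numbered 1, Epcam, Alas2 and the cholangiocyte factor Sox9 (-0.84) passed as lower, 3 of 60, against 4.96% of all genes. These marker counts lie near the shares of all genes. Of the endothelial markers 5 of 10 were higher, of the stellate cell markers 4 of 10, of the hepatocyte markers 7 of 9, and of the neutrophil and erythroid markers 1 of 6. None of these 4 lists had a marker at an unadjusted p under 0.05. The sums overlapped between the groups in the lymphocyte, Kupffer cell and cholangiocyte lists, no marker lay at zero on this scale, and the part of these cells in the differences of the kinases was not tested. In whole liver, fewer cells of a type and less RNA per cell cannot be told apart.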

How the data were processed

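Per the submitters' processing notes, the values were made with Affymetrix Expression Console, RMA and Partek (no versions or order). The authors deposited log2 values summarised and normalized by RMA for each of 35556 probe sets. The base of the logarithm was inferred from their range. RMA equalises arrays and compresses dim differences. Per the labels, 100 ng of total RNA was labelled for each array. No source used here names a genome build for the probe sets. Probe sets were named by the platform annotation, with symbols updated by Entrez identifier (21698 of 21789 probe sets with 1 symbol matched). The 23410 probe sets with at least 1 symbol entered a limma 3.58.1 fit in R 4.3.3 (lmFit, eBayes with trend, equal weights), knockout minus wild type, two-sided, with Benjamini-Hochberg adjustment over all of them and 0.05 as threshold. A gene with several probe sets was counted by its brightest. Exact permutation tests used scipy 1.17.1. The procedure was tested on simulated data. The arrays simulated for limma held larger changes than the kinases and none that stood apart, so they do not cover knockout array 1.

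The kinases, gene lists, motifs and named genes (all 9 kinases, the 2 smallest p-values per list, the 2 most similar genes per kinase) were chosen with earlier results of these data known. A few list genes were not analysed here. Replicates are separate samples by label, and whether they came from different litters or days is not stated, so p-values measure the spread between these samples. Same-numbered arrays were checked for pairing: their deviations from the group means correlated at -0.0790, -0.130, -0.0332 and 0.0784, which does not pair them. Alternatives were array weights, no trend, robust variance, other sets of probe sets, quantile normalization, median centring, a replicate block and arrays left out.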

Additional observations from a re-analysis of the deposited data

Results flagged for a closer look

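Among the kinases, the genes named from the lists and Rictor, 50 groups of 4 arrays were examined for a value far from the other 3, and chance flags about 1 in 20 such groups. There were 2 such values. Prkce read 8.75 on knockout array 3, with the other knockout arrays between 8.48 and 8.50, a gap of 0.903 of the group's range. Prr5l read 6.40 on wild type array 2, with the other wild type arrays between 6.57 and 6.58, a gap of 0.924 of the range.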

How the results depend on the processing

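At equal weights 0 of the 9 kinases and 0 of 19938 genes passed, also with no trend, robust variance, single-symbol or all probe sets, a filter on dim probe sets, quantile normalization, median centring and the replicate block. With the replicate block 0 kinases and 0 genes passed, Sgk1 differed by -0.29 and Akt2 by -0.22, and the block changed no call. With array weights 673 genes and 0 kinases passed, and without both arrays numbered 1, 1443 genes and 1 kinase, Sgk1 at -0.43. Leaving out single arrays, the count of genes ran from 0 to 838 (838 without knockout array 1, 93 without wild type array 1) and the count of kinases from 0 to 1.

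Across the 8 fits without 1 array, differences ran from -0.13 to 0.011 for Akt1, -0.29 to -0.18 for Akt2, -0.44 to -0.22 for Sgk1, -0.39 to -0.16 for Sgk2, -0.32 to -0.17 for Sgk3, -0.25 to -0.085 for Prkca, -0.019 to 0.12 for Prkcd, 0.0078 to 0.11 for Prkce and -0.089 to 0.018 for Pdpk1, so that Akt1, Prkcd and Pdpk1 changed sign in 1 fit each. Adjusted p-values over all alternatives ran from 0.0192 to 0.797 for Sgk1 and from 0.0691 to 0.757 for Akt2. The 14 genes named from the lists passed in 8 of 251 fits with 0 changes of sign, and adjusted p-values ran from 0.0114 to 0.757 for Mlst8, 0.00198 to 0.521 for Zbtb16 and 0.00474 to 0.771 for Lpin2. Rictor ran from -0.030 to 0.15 with single arrays left out and stood at 0.17 without both arrays numbered 1. With single arrays left out, the ratios that changed sign ran from -0.11 to 0.055 for Sgk1 over Sgk2, -0.13 to 0.063 for Sgk1 over Sgk3, -0.13 to 0.089 for Sgk2 over Sgk3 and -0.12 to 0.038 for Prkcd over Prkce. Without both arrays numbered 1 these 4 ratios stood at -0.011, -0.18, -0.17 and 0.082 in the same order; the ratios and their alternatives were chosen after seeing the data. By deviations from the group means, the genes most similar to each kinase had r of at least 0.923 (St8sia1) but ranked from 1 (Vmn1r197) to 26 (Ints11), so most were not the nearest within groups. Probe-level signal over background was not used here, so no limit from dim signal is given; all 9 kinases lay above the median of all probe sets.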
